A study of Mus musculus with 6 samples.

Results

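The miR-29 family was followed in small extracellular vesicles (sEVs) released by cultured mouse islets. Its members were taken by name, as every row of the deposited table named miR-29a, miR-29b or miR-29c with any arm. This rule found 4 of the 718 entries, which were mmu-miR-29a-3p, mmu-miR-29b-3p, mmu-miR-29c-3p and mmu-miR-29b-2-5p. The sEVs came from islets of wild-type (WT) C57/B6J mice, and the islets had been kept in serum-free culture before the medium was collected. Islets of mice on a normal chow diet (NCD) gave 3 libraries of normal islet-derived sEVs (nid-sEVs), and islets of mice on a high-fat diet (HFD) gave 3 libraries of adaptive islet-derived sEVs (aid-sEVs). Diet was the only labelled difference between the groups. The labels do not say how many mice gave each library, so the p-values measure the spread between these libraries. The cultures held whole islets, so the vesicles may come from any cell of the islet, and fewer vesicles of a cell type cannot be told apart from less of a miRNA per vesicle.

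A miRNA is cut from a hairpin precursor that has a 5p and a 3p arm, and the arm that is kept guides Argonaute proteins to messenger RNAs that pair with its seed, the bases near its 5′ end. In the miR-29 family the 3p arm is the guide. Its best known targets encode collagens and other proteins of the extracellular matrix, and in β cells it represses Slc16a1, the gene of a monocarboxylate transporter (MCT1) that β cells keep silent. Members of the family rise with glucose in islets and act against insulin action in liver, muscle and fat. In the study's introduction the family is named for islet-derived sEVs that change insulin sensitivity of the liver in early obesity. Whether its level differed between nid-sEVs and aid-sEVs is the question the comparison addresses.

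The mature sequences are shown because the guide arms share 1 seed and are told apart by few bases. They are from RefSeq (GRCm38.p6), are written 5′ to 3′, and carry bases 2 to 8, the seed, in capitals.
miR-29a-3p: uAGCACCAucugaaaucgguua
miR-29c-3p: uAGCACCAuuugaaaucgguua
miR-29b-3p: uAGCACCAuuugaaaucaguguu
miR-29b-2-5p: cUGGUUUCacaugguggcuuagauu
Counted from 1 at the 5′ end, miR-29a-3p and miR-29c-3p differ by a single substitution, C10U, so 1 base decides to which of them a read is assigned. From miR-29a-3p to miR-29b-3p the substitutions were C10U, G18A, U21G and A22U over the 22 shared positions, and miR-29b-3p is 1 base longer. Of the 424 listed miRNAs that had a sequence (479 entries carry a miRBase name), the 3 guide arms were the only ones with the seed AGCACCA. The passenger arm miR-29b-2-5p has another seed, UGGUUUC. The 5p arms of the other hairpins, miR-29a-5p, miR-29b-1-5p and miR-29c-5p, have no row among the 718 entries and were not analysed here. The letters AGUGUU, known as a nuclear import motif of miR-29b, stand in miR-29b-3p from base 18 and in 0.943% of the 424 sequences. The letters GGAG and CCCU, described as motifs of miRNAs sorted into vesicles, stand in no member, while 9.91% and 7.31% of the sequences hold them. The motifs were searched in the mature strand only, and a match or its absence is a description of these letters.

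The family is made from 2 pairs of hairpins (GRCm38.p6). On the minus strand of chromosome 6, Mir29a lies from 31062660 to 31062747 and Mir29b-1 from 31063023 to 31063093, with 275 bases between them. In the GENCODE M21 annotation Mir29a overlapped no other gene, and Mir29b-1 touched the edge of the long noncoding RNA gene Gm27019, which runs from 31063092 to 31063495. On the plus strand of chromosome 1, Mir29b-2 lies from 195037040 to 195037120 and Mir29c from 195037547 to 195037634, with 426 bases between them. Both lie in an exon of the noncoding gene A330023F24Rik on the same strand and opposite an exon of the protein-coding gene Cd46. The same mature miR-29b-3p is made from both pairs, so its reads cannot be assigned to 1 locus, whereas miR-29b-2-5p comes from the hairpin on chromosome 1.

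The table gives normalised read counts as RPM, the reads of an entry scaled to a common library total, from which whole reads could be recovered. By the totals behind the RPM, the nid-sEV libraries held from 50534 to 129152 counted reads and the aid-sEV libraries from 122266 to 519315. A floor of 3 reads thus corresponded to levels of 5.78 to 59.4 RPM. Totals, depth and all reads refer here to these counted reads, since the number of sequenced reads is not given. Unnamed sequences (no miRBase name) made up 33.5% of the listed RPM in nid-sEV replicate 1 and from 6.61% to 9.46% elsewhere. The islet marker miR-375-3p was present in every library, from 56585 RPM in nid-sEV replicate 1 to 346480 RPM in nid-sEV replicate 3. Intervals below are 95% Wilson intervals of read shares, and intervals and floors cover counting error only.

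Nearly all miR-29 reads were miR-29a-3p, and its level did not separate the groups. In nid-sEVs it had 6086, 17679 and 4670 RPM in replicates 1, 2 and 3, and in aid-sEVs 8673, 5482 and 11459 RPM. The highest and the lowest library were both nid-sEVs, so the range of the aid-sEVs lay inside that of the nid-sEVs. The nid-sEV values rest on 786, 1161 and 236 reads and the aid-sEV values on 4504, 1931 and 1401, and the largest interval relative to its value, that of nid-sEV replicate 3, ran from 4112 to 5303 RPM. The 3.79-fold spread among the nid-sEV libraries was therefore larger than counting error. The means were 9478 ± 7137 RPM in nid-sEVs and 8538 ± 2991 RPM in aid-sEVs (SD, n = 3). On the log2(RPM + 1) scale, the difference of aid-sEVs minus nid-sEVs was 0.039 (SE 0.59, adjusted p = 0.97 by limma), with a 95% interval from -1.38 to 1.46. Changes of over 2-fold in either direction lie inside that interval. The sign of this difference was not stable. Without nid-sEV replicate 2, the library with the highest level, the log2 fold change was 0.62, and without nid-sEV replicate 3 it was -0.34. Among the miRBase-named entries, miR-29a-3p ranked from 11 to 26 by RPM in the nid-sEV libraries and from 16 to 26 in the aid-sEV libraries.

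**Figure D1:**
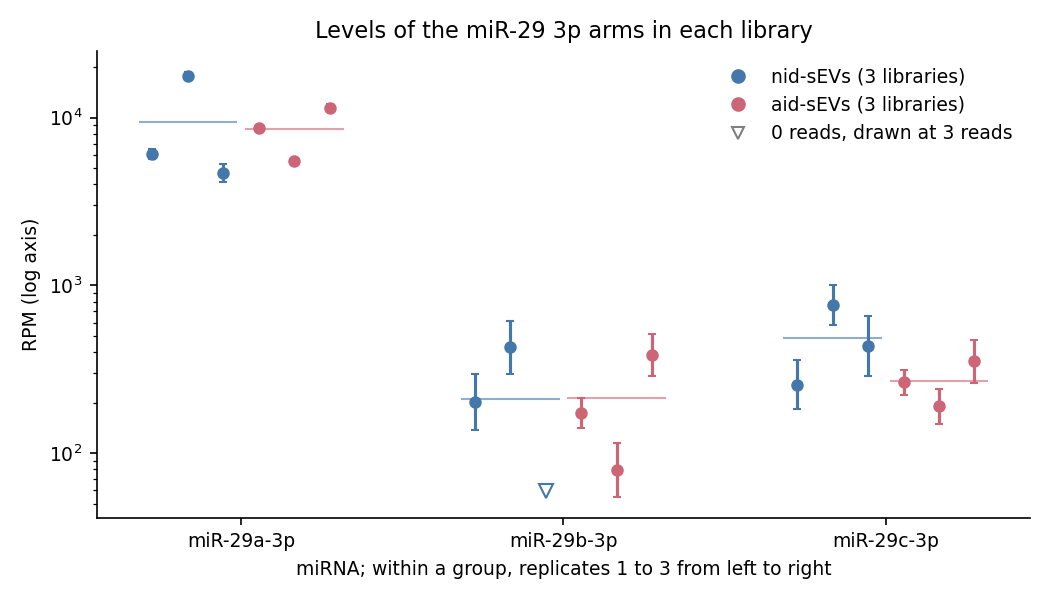
RPM (log axis) of the guide arms in each library, nid-sEVs in blue and aid-sEVs in red, with 95% Wilson intervals of the reads as bars and group means as horizontal lines. The open triangle marks nid-sEV replicate 3, which had 0 reads of miR-29b-3p and is drawn at 59.4 RPM, the level of 3 reads. The groups overlap for each miRNA, and miR-29a-3p lies above the others in all 6 libraries.

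The level of miR-29c-3p was 256, 761 and 435 RPM in nid-sEVs and 264, 190 and 352 RPM in aid-sEVs. Nid-sEV replicates 2 and 3 lay above all aid-sEV libraries, but nid-sEV replicate 1 lay between aid-sEV replicates 1 and 2, and the groups overlapped. Behind the nid-sEV values stood 33, 50 and 22 reads and behind the aid-sEV values 137, 67 and 43, and with so few reads the intervals of neighbouring libraries overlapped, as for nid-sEV replicate 3 (288 to 659 RPM) and aid-sEV replicate 3 (261 to 474 RPM). The means were 484 ± 256 RPM and 269 ± 80.8 RPM (SD, n = 3). Aid-sEVs minus nid-sEVs gave -0.75 on the log2(RPM + 1) scale (SE 0.59, limma adjusted p = 0.43), with a 95% interval from -2.19 to 0.68. The estimate was below 0 in all 18 other settings tried, from -1.14 to -0.26, and passed the threshold in none of them.

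The level of miR-29b-3p was 201, 426 and 0 RPM in nid-sEVs and 173, 79.5 and 384 RPM in aid-sEVs. The zero belongs to nid-sEV replicate 3, the shallowest library, where 0 of 50534 reads allow a level of up to 59.4 RPM by the floor of 3 reads and up to 76.0 RPM by the Wilson interval. The other 5 libraries had from 26 to 90 reads. The mean RPM of the groups was nearly the same, 209 ± 213 in nid-sEVs and 212 ± 156 in aid-sEVs (SD, n = 3), a ratio of 1.02. On the log2(RPM + 1) scale the difference was nevertheless 1.99 (SE 2.33, limma adjusted p = 0.61), with a 95% interval from -3.65 to 7.62, because a library at 0 enters the log2(RPM + 1) scale with a value of 0. Without nid-sEV replicate 3 the log2 fold change was -0.74. With a pseudocount of 0.1 it was 3.09 and with 10 it was 0.94. No direction can be given for miR-29b-3p.

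The passenger arm miR-29b-2-5p was read 2, 3 and 0 times in the aid-sEV libraries (3.85, 8.52 and 0 RPM in replicates 1, 2 and 3), and 0 times in every nid-sEV library. The nid-sEV floors of 23.2, 45.7 and 59.4 RPM lie above both of these values, so a difference was not detectable at this depth. Its fold change is drawn beside the others but is not interpreted. The adjusted p by limma was 0.24, and it was 0.019, past the threshold, when aid-sEV replicate 3 was left out, a call that would rest on 2 and 3 reads. In aid-sEV replicates 1 and 2, the deepest libraries, the guide arm miR-29b-3p had 90 and 28 reads beside these 2 and 3 reads.

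Of the 4 members, 0 were called higher and 0 lower in aid-sEVs (threshold: adjusted p below 0.05 with more than 1 log2 unit of change), and 0 had an unadjusted p under 0.05. Over all 718 entries the same rule called 15.6% higher and 1.81% lower by limma, and the groups did not overlap in RPM for 31.8% of the entries. With edgeR's quasi-likelihood test on the recovered reads, 48 entries were called higher and 21 lower of 245 tested, and with DESeq2 65 higher and 50 lower, again with 0 of the members. The median log2 fold change was 1.11 over all entries and -0.21 over the 219 entries with reads in all libraries. Minus these medians, the log2 fold change was -1.07 and 0.25 for miR-29a-3p and -1.86 and -0.54 for miR-29c-3p.

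**Figure D2:**
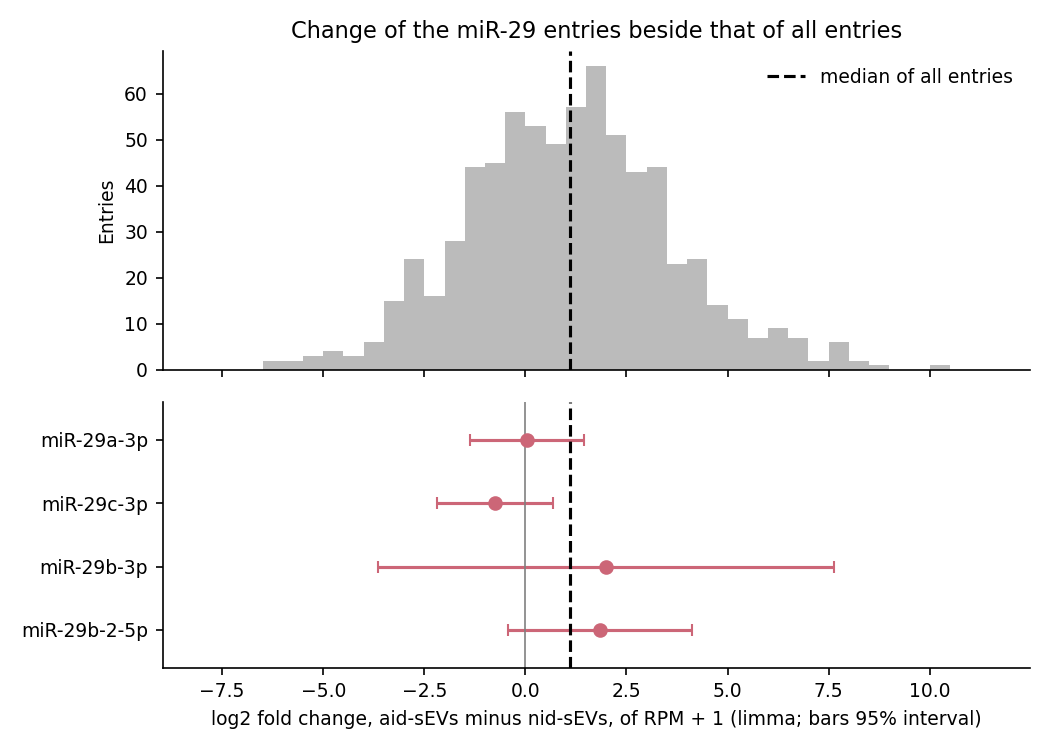
The upper plot is a histogram of the log2 fold change of all 718 entries (aid-sEVs minus nid-sEVs, RPM + 1), and the lower plot gives the 4 miR-29 entries with 95% intervals from limma. The dashed line is the median of all entries, 1.11. Each interval includes 0, and that of miR-29b-3p is the widest, from -3.65 to 7.62. The point of miR-29b-2-5p rests on 2 and 3 reads, in aid-sEV replicates 1 and 2, and is not interpreted.

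Within a library, members share the library total, so their ratios do not depend on depth or on other entries except through counting error. Summed over the guide arms, the family had 6543, 18867 and 5105 RPM in nid-sEVs and 9110, 5752 and 12195 RPM in aid-sEVs, which is from 0.511% to 1.89% of all reads. The family sum was highest in nid-sEV replicate 2, which was also the highest library for each of the guide arms. The ratio of the group means, aid-sEVs to nid-sEVs, was 0.887, or -0.17 on the log2 scale, and on that scale it became 0.63 without nid-sEV replicate 2 and 0.067 without aid-sEV replicate 2. Of the family reads, miR-29a-3p held from 91.5% to 95.3%. The order was miR-29a-3p, miR-29c-3p, miR-29b-3p in 5 libraries, and in aid-sEV replicate 3 miR-29b-3p, with 47 reads, stood before miR-29c-3p, with 43. Across libraries miR-29a-3p had from 10.7 to 32.9 reads for each read of miR-29c-3p and, in the 5 libraries with reads of both, from 29.8 to 69.0 for each read of miR-29b-3p. The latter 2 miRNAs were within 2.39-fold of each other in those 5 libraries. Ligation and amplification in small RNA sequencing can favour one miRNA over another, and its part in this order was not tested.

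The groups did not overlap in the balance between miR-29a-3p and miR-29c-3p, nor in the shares of both in the family reads. Nid-sEV replicates 1, 2 and 3 had 23.8, 23.2 and 10.7 reads of miR-29a-3p for each read of miR-29c-3p, and aid-sEV replicates 1, 2 and 3 had 32.9, 28.8 and 32.6. All aid-sEV libraries were higher than all nid-sEV libraries, and the aid-sEV libraries were close to each other. The mean log2 ratio was 4.17 ± 0.65 in nid-sEVs and 4.97 ± 0.11 in aid-sEVs (SD), a difference of 0.79 (p = 0.10 by a two-sided exact permutation test, which cannot go lower with 3 libraries a group, and 0.30 after Benjamini-Hochberg adjustment over the 3 pairs of guide arms). The size of the difference rests on nid-sEV replicate 3 with its 22 reads of miR-29c-3p, since without it the difference was 0.41. Of the reads of the pair, miR-29c-3p held 4.03%, 4.13% and 8.53% in nid-sEVs and 2.95%, 3.35% and 2.98% in aid-sEVs. The intervals of nid-sEV replicate 1 (2.88% to 5.60%) and aid-sEV replicate 2 (2.65% to 4.24%) overlapped, so they do not set the nearest libraries of the groups apart. That also holds for nid-sEV replicate 1 and aid-sEV replicate 3, whose totals of 129152 and 122266 reads are alike, with an upper bound of 3.99% in the latter. As a background, the ratio of miR-29a-3p to another entry was higher in every aid-sEV library for 17.4% of the 218 other entries with reads in all libraries. The separation was therefore not particular to this pair. After the reads were thinned to the smallest total, the difference was 0.97 and the groups overlapped (exact permutation p = 0.20).

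The other pairs did not separate the groups. For miR-29a-3p to miR-29b-3p there were 30.2 and 41.5 reads of the former for each of the latter in nid-sEV replicates 1 and 2, with no ratio in nid-sEV replicate 3, and 50.0, 69.0 and 29.8 in aid-sEVs. The difference in log2 ratio was -1.95 (two-sided exact permutation test, p = 0.80), and it was 0.40 without nid-sEV replicate 3. For miR-29c-3p to miR-29b-3p the difference was -2.74 (two-sided exact permutation test, p = 0.50), and it was -0.014 without that library. In nid-sEV replicate 3, 0 of 258 family reads were miR-29b-3p, which allows a share of up to 1.16% by the floor of 3 reads and up to 1.47% by the Wilson interval. The lowest share elsewhere was 1.38%, in aid-sEV replicate 2, with an interval from 0.958% to 1.99%. These intervals overlapped and do not set the libraries apart, and overlap alone does not show that the shares are alike. Nid-sEV replicates 1 and 2 had 3.08% and 2.26%, with lower bounds of 2.11% and 1.57%. The same library, nid-sEV replicate 3, held the highest share of miR-29c-3p, 8.53%.

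**Figure D3:**
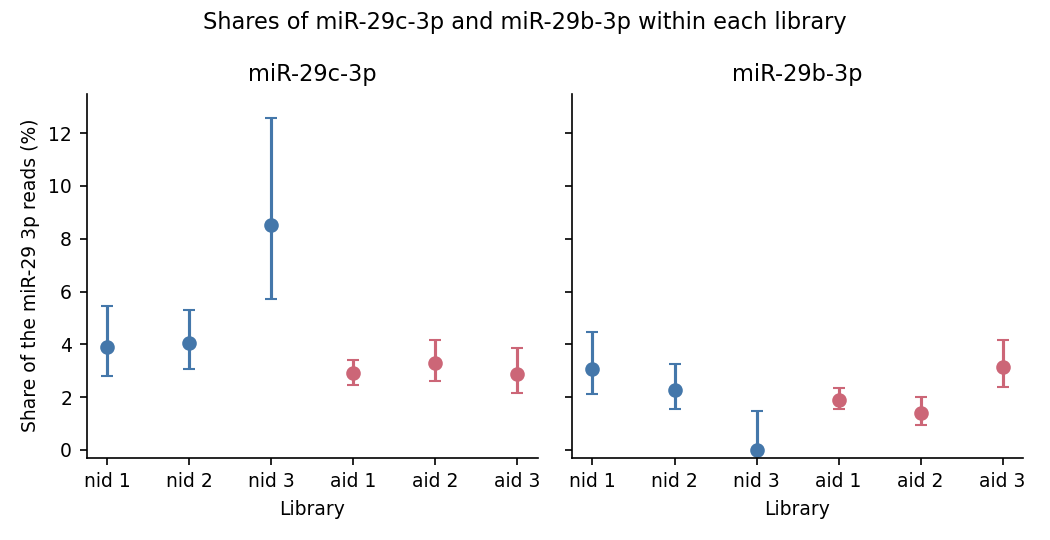
Share of the family reads (percent) held by miR-29c-3p (left) and miR-29b-3p (right) in each library, with 95% Wilson intervals, nid-sEVs in blue and aid-sEVs in red. The share of miR-29c-3p is from 3.91% to 8.53% in nid-sEVs and from 2.88% to 3.31% in aid-sEVs, and that of miR-29b-3p overlaps between the groups, with 0% in nid-sEV replicate 3.

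The miRNAs whose levels followed the members most closely differed between miR-29a-3p and miR-29c-3p. Likeness was Pearson's r of log2(RPM + 1) over the 6 libraries among the 177 other named entries with reads in all of them. The points share their library totals and the high nid-sEV replicate 2, and the r values are a description. For miR-29a-3p the closest were miR-300-3p (r = 0.89), miR-494-3p (r = 0.86) and miR-101a-3p (r = 0.83). For example, miR-300-3p had 790, 1523 and 396 RPM in nid-sEVs and 753, 627 and 785 RPM in aid-sEVs. For miR-29c-3p the closest were miR-34c-5p (r = 0.93), miR-6239 (r = 0.93) and miR-574-3p (r = 0.92). The levels of miR-34c-5p were 77.4, 670 and 416 RPM in nid-sEVs and 73.2, 11.4 and 90.0 RPM in aid-sEVs. These 6 miRNAs were not called in either direction, but they were picked for likeness to members that were not called. The log2 fold changes were -0.12, 0.14 and -0.20 for the 3 closest to miR-29a-3p. They were -2.68, -1.57 and -2.10 for the 3 closest to miR-29c-3p. Several of the 6 were near the floor of 3 reads in some library. In nid-sEV replicate 3, miR-494-3p, miR-101a-3p and miR-6239 each had 39.6 RPM, below the floor of 59.4 RPM. In aid-sEV replicate 3, miR-6239 and miR-574-3p each had 24.5 RPM, which is the floor there. Counting error therefore enters these r values. Although both guide arms were highest in nid-sEV replicate 2, r between miR-29a-3p and miR-29c-3p was 0.65, with rank 23 of 177 for miR-29a-3p and rank 31 of 177 for miR-29c-3p.

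For miR-155 and miR-204, which the introduction of the study names from earlier work on vesicles of islet macrophages and islets, the 5p arms were near the floor. The inflammatory miR-155-5p was read 5, 0 and 1 times in nid-sEVs and 2, 0 and 0 times in aid-sEVs. For miR-204-5p, a β cell miRNA that acts on insulin production, the counts were 3, 4 and 0 and then 7, 4 and 3. The lowest count of miR-29a-3p, in contrast, was 236. In a list of 27 miRNAs of β cell identity and function, 26 were in the table, 4 were called higher and 3 lower, and the median log2 fold change was 0.11. Over all 718 entries 112 (15.6%) were called higher and 13 (1.81%) lower, with a median of 1.11, so the 4 of 26 called higher are near that background. Of the 26, 22 had reads in all libraries. Among all 219 such entries the same fit called 22 higher and 9 lower, with a median of -0.21. The 3 of 26 called lower are a larger share than in either set, and no set test was run. In the list, those called higher were miR-7b-5p, miR-124-3p, miR-182-5p and miR-183-5p, and those called lower were miR-200b-3p, miR-200c-3p and miR-148a-3p. Of these, miR-182-5p, which like miR-29a-3p was well above the floor in every library, rose from 2825 ± 536 to 31112 ± 3253 RPM (SD, n = 3), by 3.47 on the log2 scale (SE 0.28, limma adjusted p = 0.0034). In a list of 9 miRNAs of fibrosis and matrix, the process in which miR-29 targets are best known, 7 were in the table, 1 was called higher and 0 lower, with a median of 0.32, and this count too is near the 15.6% of all entries. That one was miR-192-5p, with a log2 fold change of 2.49. Of 10 miRNAs of insulin sensitivity in liver, muscle and fat, 9 were in the table, 0 were called higher and 1 lower, with a median of -0.72, and the one called lower was miR-122-5p, a marker of liver.

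Since miR-29 is made in many cell types, marker miRNAs of other cells are given beside the members. The summed RPM of the islet endocrine markers miR-375-3p and miR-7a-5p ran from 69980 to 354257 in nid-sEVs and from 147768 to 172564 in aid-sEVs, with none at 0. The 6 mesenchymal markers ran from 5422 to 24684 RPM and from 4494 to 11637 RPM, and the 2 endothelial markers from 989 to 3717 RPM and from 679 to 1325 RPM. The 3 acinar markers ran from 2533 to 8997 RPM and from 698 to 3370 RPM. The 2 red cell markers ran from 237 to 2036 RPM and from 40.9 to 252 RPM. These ranges overlapped between the groups. The 4 leukocyte markers ran from 152 to 416 RPM in nid-sEVs and from 24.5 to 34.7 RPM in aid-sEVs. The liver marker miR-122-5p ran from 396 to 3000 RPM and from 24.5 to 42.6 RPM. Both were lower in every aid-sEV library, but the groups did not overlap in RPM for 31.8% of all entries either. The share of miR-29c-3p in the family reads was also lower in every aid-sEV library, while its RPM overlapped. For ratios the background was 17.4%, the share of entries with a higher ratio of miR-29a-3p to them in every aid-sEV library. The highest leukocyte sum, 416 RPM in nid-sEV replicate 3, was all miR-150-5p. Of the markers, 1 mesenchymal and 3 leukocyte miRNAs were at 0 in some library. Their part in the balance between miR-29a-3p and miR-29c-3p was not tested. In nid-sEV replicate 2, where the family was highest, the liver marker was highest as well, but the mesenchymal, endothelial, acinar and red cell markers were highest in nid-sEV replicate 1.

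**Figure D4:**
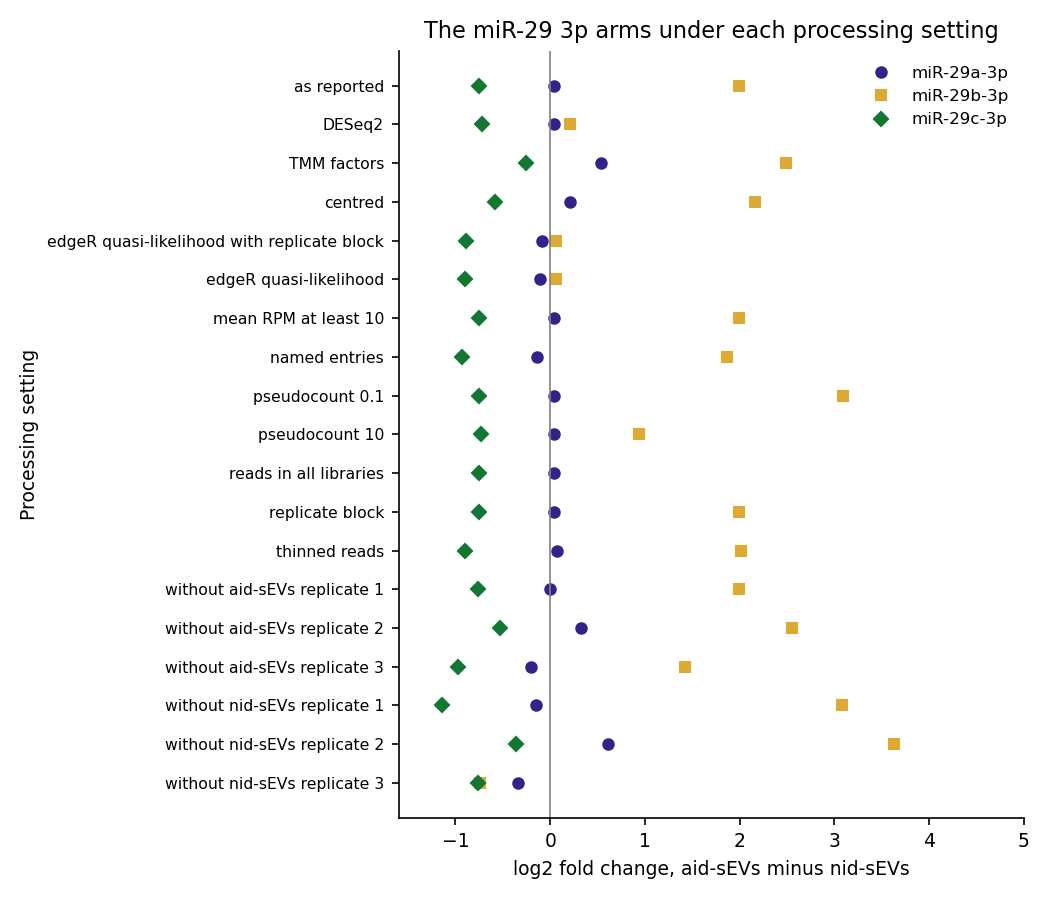
Log2 fold change (aid-sEVs minus nid-sEVs) of the guide arms as reported and under each other processing setting, 1 setting a row. The points of miR-29c-3p stay between -1.14 and -0.26, those of miR-29a-3p lie on both sides of 0, from -0.34 to 0.62, and those of miR-29b-3p run from -0.74, without nid-sEV replicate 3, to 3.63.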

How the data were processed

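Small RNA libraries of sEVs (3 nid-sEVs, 3 aid-sEVs) were sequenced by a company, which also processed the reads. The submitters' processing notes name fastp 0.23.0, HISAT2 2.2.1 and GRCm38, with no role given. The miRNA reference, counter and filters are not given in the sources used here. The authors deposited a table of RPM for 718 entries, none with reads in fewer than 2 libraries. The table also holds the authors' own comparison (log2 fold change, mean log2 abundance, p-value and false discovery rate), which was not used.

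RPM divided by the smallest value above 0 gave whole reads for 100% of values (tolerance 0.001). RPM were compared with limma 3.58.1 (R 4.3.3, eBayes with trend) on log2(RPM + 1) over all entries, without a filter, with Benjamini-Hochberg adjustment over all entries. An entry was called at an adjusted p below 0.05 with more than 1 log2 unit of change. Low RPM are sensitive to the added 1 and to depth. Ratios between members were tested with exact permutation tests. Alternatives were pseudocounts of 0.1 and 10, a mean RPM of at least 10, entries with reads in all libraries, TMM factors, centring on those entries, named entries only, thinned reads, a replicate block, each library left out, edgeR 4.0.16 (quasi-likelihood), DESeq2 1.42.0, and no limit on the fold change. The block in edgeR and in the ratios was added after seeing the data. The members, lists and tests were chosen with earlier results of these data known. Named were the members, the 3 entries most like miR-29a-3p and miR-29c-3p, miRNAs with the same seed, miR-375-3p, miR-155-5p and miR-204-5p, and called miRNAs of the lists. Single miRNAs with a related seed were named after their values were seen. Reads themselves and the other assays of the study were not analysed here.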

Additional observations from a re-analysis of the deposited data

How the results depend on the processing

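The 3 guide arms stayed uncalled in each setting that tested them. The sign of miR-29c-3p and of the difference in its ratio to miR-29a-3p held in all, while the log2 fold change of miR-29a-3p became -0.14 with named entries only, -0.10 with edgeR's quasi-likelihood test and -0.082 with that test and a replicate block, and ran from -0.34 to 0.62 with each library left out. With each library left out, that of miR-29b-3p ran from -0.74 to 3.63 and the difference in the ratio of miR-29a-3p to miR-29b-3p from -3.24 to 0.40. miR-29b-3p could not be fitted among entries with reads in all libraries. The counts over all entries, 112 higher and 13 lower, became 65 and 50 with DESeq2, 48 and 21 with edgeR, 69 higher at a mean RPM of at least 10, 62 higher with a pseudocount of 10, 8 lower with a pseudocount of 0.1, 3 lower with TMM factors, 23 higher among entries with reads in all libraries, 63 and 6 with thinned reads, and from 33 to 150 higher and from 1 to 26 lower with each library left out, the smallest of both without nid-sEV replicate 2 and the largest of both without nid-sEV replicate 1. Without nid-sEV replicate 3 there were 61 higher, and without aid-sEV replicates 1, 2 and 3 there were 4, 2 and 8 lower. The median of all entries, 1.11, was 1.43 with TMM factors, 1.28 after centring and 1.78 with a pseudocount of 0.1. It was smaller with a pseudocount of 10 (0.39), with DESeq2 (0.36) and with thinned reads (0.19). At a mean RPM of at least 10 it was 0.55, and over the entries that edgeR tested it was -0.021. The median of 1.11 thus depends on how low counts and depth are handled. The cause was not tested. With the replicate number as a block limma called 0 and 0 (148 and 39 at an unadjusted p under 0.05) and edgeR 28 and 12. Deviations of same-numbered libraries had r = -0.054, 0.13 and -0.11 for numbers 1, 2 and 3, over entries with reads in all libraries. Between libraries of different numbers r ran from -0.20 to 0.21. The labels do not say whether same-numbered libraries were processed together, and these values cannot settle it with 3 libraries a group. Depth limits miR-29b-2-5p, and miR-29b-3p in nid-sEV replicate 3.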

Other observations

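Seeds that differ from AGCACCA at 1 position were found in 6 listed miRNAs, and 0 of them were called in either direction. Over all 718 entries 15.6% were called higher and 1.81% lower, so 0 of 6 is not read as a result about these seeds. Of the 6 miRNAs, 5 belong to the miR-15/16 family, whose members restrain the cell cycle and carry the seed AGCAGCA (C6G, counted from base 1). The most abundant in nid-sEVs was miR-16-5p, with a mean of 894 RPM in nid-sEVs and 642 RPM in aid-sEVs and a log2 difference of -0.037 (SE 0.76, limma adjusted p = 0.98). The value of miR-15b-5p was 5.47 (SE 2.24, limma adjusted p = 0.17), with means of 221 and 1146 RPM, and that of miR-195a-5p was -1.26 (SE 0.87, limma adjusted p = 0.36). The 5.47 is larger than the log2 ratio of these means. Of the 6, only 2 had reads in all libraries, and on the log2(RPM + 1) scale a library at 0 weighs heavily, as for miR-29b-3p. The sixth, miR-3102-3p, carries A8C and had means of 10.3 and 18.4 RPM.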
